A study of Mus musculus with 4 samples.

Results

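E2F1 occupancy at the replication-dependent histone genes was measured by chromatin immunoprecipitation and sequencing (ChIP-seq) in mouse embryonic stem cells (ESCs). A deposited peak was taken as a histone peak when it overlapped the region from 1000 bp upstream to 500 bp downstream of any transcript start (GENCODE M1, mm9) of a gene whose symbol begins with Hist1h, Hist2h, Hist3h or Hist4h. Of the 4523 peaks, 34 were histone peaks, and 4056 lay in the same window of other genes and served for comparison. The 4 samples are serum ESCs (2 replicates) and 2i ESCs (2 replicates), adapted to their medium for over 20 days, and all were immunoprecipitated with an E2F1 antibody. Serum ESCs grow in medium with serum, and 2i ESCs in medium with an inhibitor of MEK and an inhibitor of GSK3. The labels name neither the ESC line nor a cell cycle sort, and no input sample is among the 4. Between 248878 and 710519 reads fell in peaks per sample, fewest in serum replicate 1 and most in 2i replicate 1. Each sample is a bulk population, in which fewer cells with bound E2F1 and less E2F1 per cell cannot be told apart. RNA from the same chromatin samples was not analysed here, so the ESC identity was not checked against marker genes.

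Replication-dependent histone genes encode the H1 linker histone and the core histones H2A, H2B, H3 and H4 that package newly made DNA during S-phase. They are short genes without introns, they stand in clusters in which many copies encode the same or nearly the same protein, and their mRNAs end in a stem-loop in place of a poly(A) tail. Their transcription is switched on at the G1/S transition through cyclin E-CDK2 and the coactivator NPAT. E2F1 is a transcription factor that activates genes needed for S-phase and is restrained by the RB family.

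E2F1 peaks were found at 41 of the 70 annotated histone genes, of which 67 are protein coding and 3 are pseudogenes. The Hist1 cluster on chromosome 13 accounted for most of them, with 38 of its 56 genes. In the Hist2 cluster on chromosome 3, 3 of 10 genes had a peak (Hist2h2ab, Hist2h2ac and Hist2h2be). None of the 3 Hist3 genes on chromosome 11 and not the single Hist4 gene on chromosome 6 had one. By type, a peak lay at 4 of 6 linker histone H1 genes, 12 of 20 H2A genes, 11 of 19 H2B genes, 8 of 12 H3 genes and 6 of 13 H4 genes. Because 17 of the 34 peaks fell in the windows of more than 1 histone gene, each peak was named after the histone gene with the nearest start, which left 34 genes that each name 1 peak. These are 4 H1, 11 H2A, 7 H2B, 7 H3 and 5 H4 genes.

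The 18 Hist1 genes without a peak were Hist1h1c, Hist1h1t, Hist1h2aa, Hist1h2aj, Hist1h2ak, Hist1h2ao, Hist1h2ap, Hist1h2ba, Hist1h2bm, Hist1h2bn, Hist1h2bq, Hist1h2br, Hist1h3e, Hist1h4b, Hist1h4c, Hist1h4h, Hist1h4m and Hist1h4n. Among them, Hist1h1t, Hist1h2aa and Hist1h2ba encode histones of the male germ line. Some of these genes lie in duplicated sequence. In 7 of the 29 genes without a peak, fewer than 10% of the 43-base windows around the start occurred once in the genome (43 bases is the read length), and this was so for 0 of the 41 genes with a peak. In 12 of the 29, however, 80% or more of the windows occurred once, as in 16 of the 41 genes with a peak. The part of repeated sequence in the missing peaks was not tested.

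The DNA under the peaks is shown for the peak of each histone type with the highest log2 fold change. The 81 bases around the peak centre are read 5′ to 3′ in the direction of the gene from the NCBIM37 genome (mm9). They show that the midpoint of the peak lies in coding sequence and how far that sequence is repeated. Capitals mark bases whose surrounding 43-base window occurs once in the genome.
Hist1h1b (H1, chr13:21872211-21872291, minus strand): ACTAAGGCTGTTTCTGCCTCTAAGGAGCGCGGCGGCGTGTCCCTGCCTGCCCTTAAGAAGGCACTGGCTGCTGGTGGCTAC
Hist1h2ab (H2A, chr13:23843132-23843212, plus strand): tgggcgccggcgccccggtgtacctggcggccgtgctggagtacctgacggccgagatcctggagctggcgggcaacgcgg
Hist1h2bh (H2B, chr13:23634952-23635032, minus strand): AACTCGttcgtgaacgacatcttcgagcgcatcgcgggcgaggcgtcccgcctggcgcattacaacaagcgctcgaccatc
Hist1h3a (H3, chr13:23853986-23854066, minus strand): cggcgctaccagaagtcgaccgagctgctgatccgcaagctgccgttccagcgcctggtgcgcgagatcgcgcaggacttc
Hist1h4f (H4, chr13:23643298-23643378, minus strand): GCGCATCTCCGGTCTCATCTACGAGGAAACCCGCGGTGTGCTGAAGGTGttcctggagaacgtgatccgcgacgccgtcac
All 81 bases of the H1 stretch lie in windows that occur once, against 49 bases of the H4 stretch, 6 bases of the H2B stretch and 0 of the H2A and H3 stretches. The most repeated windows in the stretches occur 19 times in the genome for H2A, 15 times for H2B, 12 times for H3 and 11 times for H4. The 43-base window shared most widely among the peaks came from H2A genes and is shown from the Hist1h2ad peak, the least unique of all.
Hist1h2ad (chr13:23666520-23666562, plus strand): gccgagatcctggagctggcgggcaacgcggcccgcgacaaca
This window occurs 19 times in the genome and in 12 of the 34 histone peaks, so single reads from it cannot be assigned to 1 gene by sequence. Read pairs reach further. The study's methods name BWA at its default settings for the alignment. A filter on mapping quality is not given in the sources used here.

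A search for E2F letters (TTTCCCGC, TTTCGCGC, TTTGCCGC or TTTGGCGC on either strand) found 10 matches in 8 of the 34 histone peaks. That share of 23.5% compares with 6.46% of the 4056 other promoter peaks. Copies of a histone gene share sequence, so the histone peaks with a match are not independent observations, and the difference was not tested. The stretches are printed because most of the matches were not upstream of the gene but inside it. Capitals mark the match. In the H2A genes and Hist1h4d the match came a few codons after the start codon (atg).
Hist1h2ad (chr13:23666339-23666368, plus strand): aatgtctggacGCGGCAAAcagggtggcaa
Hist1h2af (chr13:23625779-23625808, plus strand): aatgtctggacGCGGCAAAcagggtggcaa
Hist1h2ag (chr13:22134768-22134797, minus strand): aatgtctggacGCGGCAAAcagggcggcaa
Hist1h2an (chr13:21879059-21879088, minus strand): aatgtctggacGCGGCAAAcagggcggcaa
Hist1h4d (chr13:23673470-23673499, plus strand): catgtctggacGCGGGAAAggcggcaaggg
Hist1h4j (chr13:21826973-21827002, plus strand): cagaggtaaggGCGGGAAAgggctcggtaa
Hist1h4k (chr13:21842337-21842366, minus strand): cagaggtaaggGCGGGAAAgggctcggtaa
The capitals in these 7 stretches are the complements of TTTGCCGC in the H2A genes and of TTTCCCGC in the H4 genes, since the match lies on the strand opposite to the gene. The coding stretches of Hist1h4j and Hist1h4k are identical. The other 3 matches were TTTCGCGC at or upstream of the start of an H2A gene, and those of Hist1h2ag and Hist1h2an are shown.
Hist1h2ag (chr13:22134862-22134891, minus strand): cgaacgttcctTTTCGCGCccagagaaaac
Hist1h2an (chr13:21879151-21879180, minus strand): cgtaggctcttTTTCGCGCttggagaatcc
A match is a description of the letters and not a measured binding site. The 8 peaks with a match had a median log2 fold change of 0.77 (serum minus 2i) and the 26 without one had a median of 0.98.

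Other promoter letters were counted in the same way, with no test of the difference between histone peaks and other promoter peaks. TATAAA stood in 14 of 34 histone peaks (41.2%) and in 3.13% of the others. CCAAT stood in 13 (38.2%) against 26.1%. ATTTGCAT, the octamer known from H2B promoters, stood in 2 (5.88%) against 0.838%, and AAACACA, known from H1 promoters, stood in 3 (8.82%) against 1.85%. Only 1 of the 2 octamers lay in a peak of an H2B gene (Hist1h2bc, the other at Hist1h4j), and only 1 of the 3 AAACACA words lay in a peak of an H1 gene (Hist1h1e, the others at Hist1h3h and Hist1h2bc). All were searched on both strands over the whole peak, and 0 of the matches in histone peaks overlapped a match of another motif. Over the full window around the start, E2F letters were present in 15 of the 41 genes with a peak (36.6%) and in 4 of the 29 without (13.8%), and TATAAA in 82.9% against 69.0%. The octamer stood in 10 of the 41 (24.4%) and 8 of the 29 (27.6%), AAACACA in 13 (31.7%) and 11 (37.9%), and each of the 70 windows held CCAAT. Neighbouring genes share part of their windows, and copies share sequence, so these counts are not independent observations.

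E2F1 peaks at histone genes had their centres inside the gene. The centre is the midpoint of the deposited peak, and the highest point of the signal within a peak was not read. In 33 of the 34 peaks the centre lay in coding sequence, between 100 and 350 bp downstream of the start of the nearest histone gene. The median distance over the 34 peaks was 208 bp. The exception was the longest peak, of 1293 bp, which covers the divergent Hist1h2bc and Hist1h2ac pair and has its centre at -40.5 bp, upstream of the Hist1h2bc start. Among the other promoter peaks, the median centre was 52.5 bp downstream of the nearest start, 35.4% were centred more than 100 bp downstream and 17.4% were centred in coding sequence of any gene. Histone genes are short and without introns, so the shares centred in coding sequence do not compare like with like. Histone peaks were of ordinary length (median 489.5 bp against 487 bp) and lower in GC (median 61.5% against 74.8%).

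**Figure D1:**
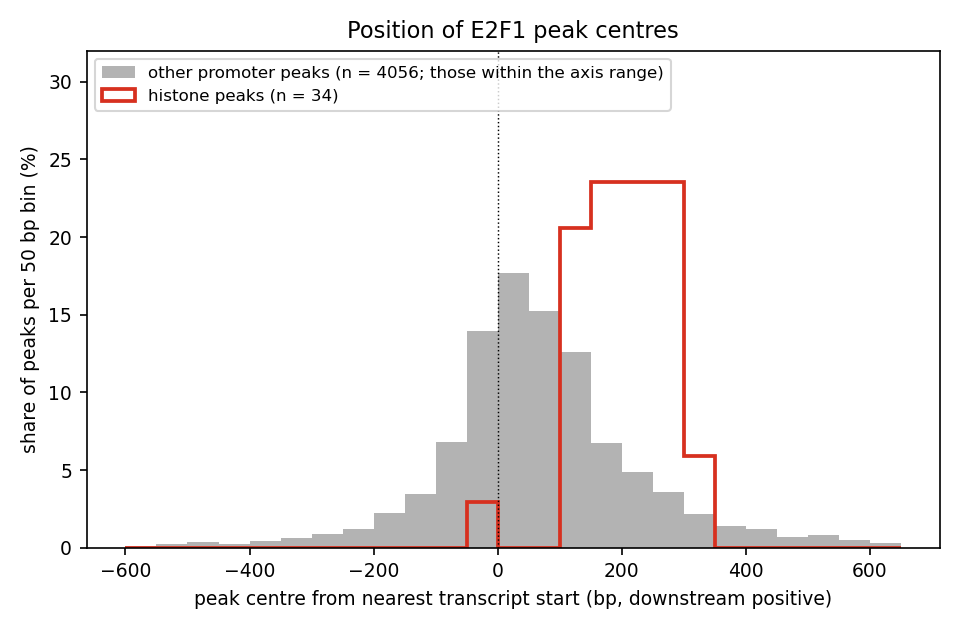
Distance of the peak centre from the nearest transcript start in bp (horizontal, downstream positive) and share of peaks per bin in percent (vertical), for 34 histone peaks (red outline) and 4056 other promoter peaks (grey). The histone peaks lie to the right of the grey maximum, with a median of 208 bp against 52.5 bp, and 1 lies just upstream of the start.

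Histone genes were among the more strongly occupied promoters. Per kb of peak, the median mean normalized count was 309 for histone peaks and 128 for the other promoter peaks, and 91.9% of the other promoter peaks lay below the histone median. Within the histone peaks the range was 119 to 441 per kb. The highest value of each type was at Hist1h3d for H3 (441 per kb), Hist1h2ad for H2A (419), Hist1h2bg for H2B (362), Hist1h4i for H4 (317) and Hist1h1d for H1 (314). The 7 H3 peaks had the highest median per kb (407) and the 4 H1 peaks the lowest (231), with H2A at 341, H2B at 269.7 and H4 at 259. Peaks of repeated genes can hold reads that originate from another copy, so the levels of single H2A, H2B, H3 and H4 genes are uncertain. The order of the types by count per kb is uncertain for the same reason.

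E2F1 signal at the histone genes was higher in serum ESCs than in 2i ESCs. The log2 fold change (serum minus 2i, on log2(normalized count + 1)) was positive at 33 of the 34 peaks, with a median of 0.91 and a range of -0.08 to 1.82. Among the other promoter peaks it was positive at 1869 of 4056, with a median of -0.05. A peak counted as called when its log2 fold change exceeded 1 in size, whichever the direction, with a limma p under 0.05 before adjustment, which held for 10.3% of all peaks. Called and higher in serum were 13 histone peaks, against 4.82% of all peaks and 150 of the 4056 other promoter peaks (3.70%). Called and higher in 2i were 0 histone peaks, against 5.48% of all peaks, and 0 histone peaks had an unadjusted limma p under 0.05 with 2i higher. Without the threshold on fold change, 29 histone peaks had an unadjusted p under 0.05 with serum higher (9.48% of all peaks). After Benjamini-Hochberg adjustment over all 4523 peaks, 5 histone peaks passed (1.15% of all peaks passed with serum higher). In limma without a variance trend 0 passed, with 20 at an unadjusted p under 0.05 and serum higher, so the adjusted calls rest on that setting. Both serum values lay above both 2i values in 32 histone peaks, against 24.9% of all peaks and 23.1% of the other promoter peaks. The 34 histone peaks were measured in the same samples and many hold copies of the same sequence. Their counts are therefore not counts of independent observations. Exact permutation of 2 against 2 samples, two-sided, cannot give a p below 0.333 for any peak, so each call relies on the spread pooled over all peaks. The study's methods call the ChIP-seq replicates biological, and the labels do not say whether they came from separate cultures. The p-values measure the spread between these samples.

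**Figure D2:**
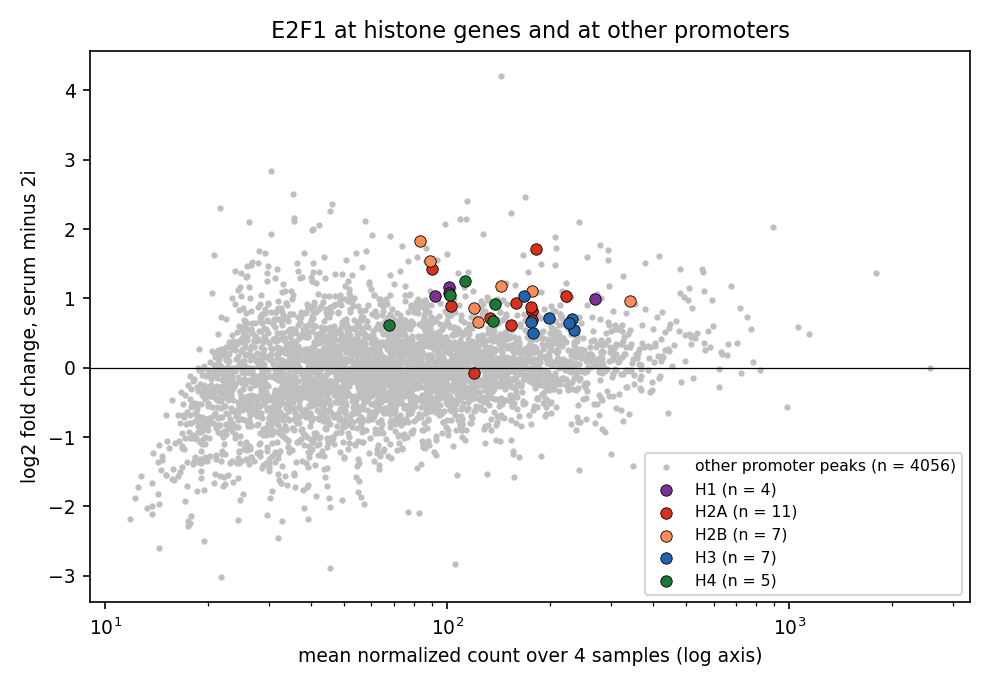
Mean normalized count over the 4 samples (horizontal, log axis) and log2 fold change, serum minus 2i (vertical), for 4056 other promoter peaks (grey) and 34 histone peaks coloured by histone type. All histone peaks but Hist2h2ab lie above 0, where the other promoter peaks have their median at -0.05.

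The difference was similar against narrower sets of other promoter peaks, some of which were chosen after the data were seen. The median log2 fold change was 0.01 for the 315 other promoter peaks on chromosomes 3 and 13, 0.01 for the 1219 centred 100 to 350 bp downstream of the nearest start, and -0.11 for the 707 centred in coding sequence. It was 0.05 for the 166 of which under 90% of the 43-base windows occur once. The 7 other promoter peaks within 2 Mb of the Hist1 cluster had a median of -0.0048. No other promoter peak lay between the first and last peak of the main cluster.

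The H1 genes encode the linker histones, which bind DNA between nucleosomes. Pairs of normalized counts are given as replicate 1 and then replicate 2 of a condition. All 4 H1 peaks had both serum values above both 2i values, and 3 of the 4 were called. At Hist1h1b (chr13:21872004-21872497) the normalized counts were 152 and 128 in serum and 73.9 and 51.1 in 2i, with a log2 fold change of 1.17 (SE 0.29). Hist1h1e (chr13:23713919-23714545) had 155 and 119 in serum and 80.6 and 50.1 in 2i, with a log2 fold change of 1.08 (SE 0.31). Both replicates of each condition stood apart at these peaks, though the 2i values differed among themselves. Hist1h1a (chr13:23855534-23855893) had 138 and 109.6 in serum and 73.3 and 48.0 in 2i, with a log2 fold change of 1.04 (SE 0.31). Hist1h1d, the strongest H1 peak (chr13:23646812-23647672), had 379.8 and 338 in serum and 213 and 150.2 in 2i, and its log2 fold change of 0.998 (SE 0.26) lay just under the threshold. The limma adjusted p of the 4 peaks ranged from 0.0814 to 0.122. H1 sequences diverge more than core histone sequences, and the H1 peaks are among those whose reads are most easily placed, with 71.1% to 100% of their 43-base windows found once.

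H2A forms the dimer with H2B that sits on either face of the nucleosome core. Of the 11 H2A peaks, 10 had serum values above 2i values without overlap, 3 were called and 2 passed adjustment. The largest difference was at Hist1h2ab (chr13:23842914-23843428), with 294 and 263 in serum and 101 and 69.9 in 2i. Its serum values exceeded its 2i values at a fold change of 3.28 and a log2 fold change of 1.71 (SE 0.27), 95% interval 1.12 to 2.30, limma adjusted p = 0.0163. Hist1h2al (chr13:51298026-51298473), which stands alone on chromosome 13 far from the main cluster, had 124 and 138 in serum and 39.2 and 58.4 in 2i, a log2 fold change of 1.43 (SE 0.30) and a limma adjusted p of 0.0472. Hist1h2ai (chr13:21808167-21808746) had 312 and 281 in serum and 176 and 117 in 2i and a log2 fold change of 1.04 (SE 0.27), limma adjusted p = 0.0898. The H2A peak with the highest count per kb, Hist1h2ad (chr13:23666290-23666708), had 228 and 222 in serum and 152 and 98.1 in 2i and a log2 fold change of 0.88 (SE 0.27), which was not called, and from 0.57 to 1.19 with 1 sample left out, where it was called without 2i replicate 1. The remaining Hist1 H2A peaks had log2 fold changes from 0.62 at Hist1h2ag to 0.94 at Hist1h2ae, and serum was higher at each of them.

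H2B showed the highest median of the core histones. All 7 H2B peaks had both serum values above both 2i values, 4 were called and 3 passed adjustment, and their median log2 fold change was 1.11. The most changed of all histone peaks was Hist1h2bh (chr13:23634780-23635203), with 141 and 119 in serum and 36.4 and 35.5 in 2i. Its 2i values lay close together and were the lowest of any histone peak in each 2i replicate. The fold change was 3.54, with a log2 fold change of 1.82 (SE 0.30), 95% interval 1.17 to 2.48, limma adjusted p = 0.0173. Hist1h2bl (chr13:21807591-21807921) had 149.8 and 116 in serum and 48.1 and 41.7 in 2i, with a log2 fold change of 1.54 (SE 0.29) and a limma adjusted p of 0.0347. Hist1h2bj (chr13:22135085-22135608) had 209 and 189 in serum and 79.5 and 94.9 in 2i, with a log2 fold change of 1.18 (SE 0.25) and a limma adjusted p of 0.0486. In these 3 peaks the spread between replicates was small beside the distance between conditions. Hist1h2bg (chr13:23663263-23663751), the strongest H2B peak per kb, had 282 and 202 in serum and 125 and 97.01 in 2i and a log2 fold change of 1.11 (SE 0.27), limma adjusted p = 0.077. The peak over Hist1h2bc and Hist1h2ac held the highest serum counts of all, with 446 and 460.4 in serum and 229 and 235 in 2i, and its log2 fold change of 0.96 (SE 0.25) was not called. The other H2B peaks had 0.66 at Hist1h2bb and 0.86 at Hist1h2bk.

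H3 forms the tetramer at the centre of the nucleosome together with H4. Its 7 peaks had the highest median count per kb and the lowest median log2 fold change, 0.66. The called H3 peak was Hist1h3a (chr13:23853760-23854290), with 263 and 189.7 in serum and 112 and 104 in 2i, a log2 fold change of 1.04 (SE 0.26) and a limma adjusted p of 0.0834. It lay close to the threshold and was not called in 5 of 9 alternatives, with log2 fold changes from 0.81 without serum replicate 1 to 0.996 with a pseudocount of 8. The smallest positive differences of all histone peaks were at H3 genes. Hist1h3d (chr13:23667628-23668031) had 213 and 197 in serum and 194 and 106 in 2i, a log2 fold change of 0.51 (SE 0.30) and a 95% interval of -0.16 to 1.17. Hist1h3h (chr13:21809443-21809982) had 299.7 and 248 in serum and 252 and 139 in 2i and a log2 fold change of 0.54 (SE 0.31). At both, 2i replicate 1 lay close to serum replicate 2, and 2i replicate 2 was the lowest sample. Without 2i replicate 2 the log2 fold change was 0.076 at Hist1h3d and 0.11 at Hist1h3h, and without 2i replicate 1 it was 0.94 and 0.97. Hist1h3b, Hist1h3c, Hist1h3g and Hist1h3i had log2 fold changes of 0.72, 0.65, 0.66 and 0.71, each with serum above 2i in both replicates.

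All 5 H4 peaks had serum above 2i without overlap, with a median log2 fold change of 0.92, and 2 were called. Hist1h4f (chr13:23643120-23643554) had 149.8 and 167 in serum and 77.3 and 56.3 in 2i, a log2 fold change of 1.25 (SE 0.28) and a limma adjusted p of 0.0588. Hist1h4d (chr13:23673367-23673810) had 155 and 118 in serum and 79.5 and 53.2 in 2i, a log2 fold change of 1.05 (SE 0.30) and a limma adjusted p of 0.116. Hist1h4i (chr13:22132875-22133303), the strongest H4 peak per kb, had 179 and 154 in serum and 106 and 102 in 2i and a log2 fold change of 0.67 (SE 0.25), which was not called. Hist1h4j was the weakest histone peak per kb, with 90.6 and 71.5 in serum and 70.0 and 38.6 in 2i, and Hist1h4k had 221 and 137 in serum and 126 and 66.8 in 2i. By type, the medians ran from 0.66 for H3 over 0.88 for H2A, 0.92 for H4 and 1.06 for H1 to 1.11 for H2B. The SE of single peaks ranged from 0.24 to 0.36, and a difference between histone types was not tested.

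**Figure D3:**
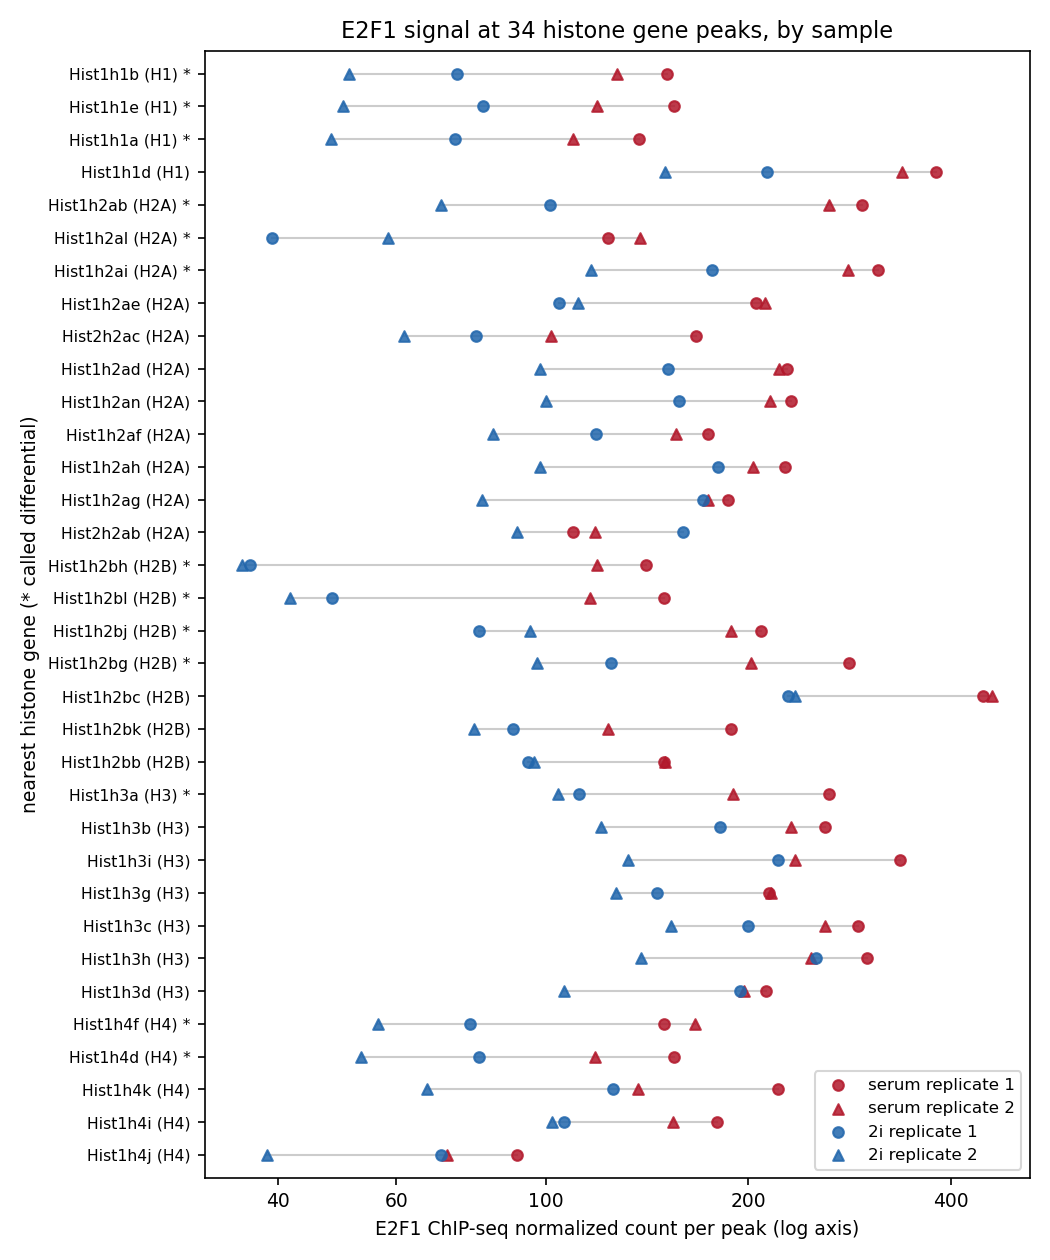
Normalized count (horizontal, log axis) of each of the 34 histone peaks in each of the 4 samples, serum in red and 2i in blue, with circles for replicate 1 and triangles for replicate 2. Peaks are named by the nearest histone gene and ordered by type and log2 fold change, and stars mark the 13 called peaks. Red symbols lie right of both blue symbols in all peaks but Hist1h3h and Hist2h2ab.

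The Hist2 cluster, a smaller cluster on chromosome 3, contributed 2 H2A peaks, which both also lie in the window of Hist2h2be. Hist2h2ac (chr3:96024416-96024885) had 167 and 102 in serum and 78.9 and 61.5 in 2i, a log2 fold change of 0.90 (SE 0.31) and an unadjusted limma p of 0.015, and was not called. With 1 sample left out its log2 fold change went from 0.54 without serum replicate 1 to 1.25 without serum replicate 2. Hist2h2ab (chr3:96023758-96024192) had 109.8 and 118 in serum and 160.1 and 90.8 in 2i, so that both serum values lay between the 2i values. Its log2 fold change of -0.08 (SE 0.31) was the only negative one, with a 95% interval of -0.75 to 0.59, and without 2i replicate 1 it was 0.32. Along chromosome 13 the Hist1 peaks fell into 3 groups and 1 single peak, when split at gaps over 200 kb (a split chosen after the data were seen). The 8 peaks from Hist1h2bl to Hist1h2an had a median log2 fold change of 0.87 with 3 called, the 5 from Hist1h2ah to Hist1h2bj had 0.69 with 1 called, and the 18 from Hist1h2af to Hist1h1a had 0.98 with 8 called. Hist1h2al, the single peak, was called.

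In 4 places an H2A and an H2B gene that are transcribed away from each other, with starts 176 to 269 bp apart, each named a peak. The log2 fold change was higher on the H2B side in all 4 pairs. The difference was 0.50 for Hist1h2bl over Hist1h2ai, 0.57 for Hist1h2bj over Hist1h2ag, 0.17 for Hist1h2bk over Hist1h2ah and 0.17 for Hist1h2bg over Hist1h2ae. The combined SE of each difference was between 0.37 and 0.42, and the differences ranged from below 1 such SE to little above it. This SE takes the peaks of a pair as independent, although they were measured in the same samples. A difference within samples was not tested. The counts per kb were higher on the H2A side in all 4 pairs, by a margin from 382.7 against 269.7 at the Hist1h2ai pair to 362.4 against 361.8 at the Hist1h2ae pair.

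Summed over the 34 peaks, the normalized count was 7323 in serum replicate 1 and 6367 in serum replicate 2, against 4349 in 2i replicate 1 and 3147 in 2i replicate 2. The serum samples lay above the 2i samples, at 6845 ± 676 against 3748 ± 850 (SD, n = 2), which is 1.83-fold. As a share of the signal in all promoter peaks, histone peaks held 1.82% and 1.59% in serum and 1.16% and 0.816% in 2i, a measure that does not depend on the scaling between samples. The mean shares were 1.71% ± 0.17 and 0.988% ± 0.244 (SD, n = 2). The reads behind these sums were 4203, 6680, 7768 and 3017 in the same order of samples, and no histone peak had fewer than 34 reads in any sample. The 2 replicates of 2i differed at histone genes. In 29 of the 34 peaks 2i replicate 1 was above 2i replicate 2, with a median ratio of 1.43, against a median ratio of 1.01 over the other promoter peaks. The ratio of serum replicate 1 to serum replicate 2 was 1.12 against 1.001. Without 2i replicate 2 the median log2 fold change of the histone peaks was 0.73 with 6 called, and without 2i replicate 1 it was 1.11 with 23 called. Without serum replicate 1 it was 0.79 with 7 called, and without serum replicate 2 it was 1.03 with 17 called. Hist1h1a, Hist1h1e, Hist1h2ai, Hist1h2bg, Hist1h3a and Hist1h4d were no longer called without serum replicate 1, nor without 2i replicate 2, and without the latter Hist1h1b was not called either. The part of differences between replicates in these results was not tested. The number passing adjustment was 5 with all samples, and 0 or 1 when any 1 sample was left out.

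**Figure D4:**
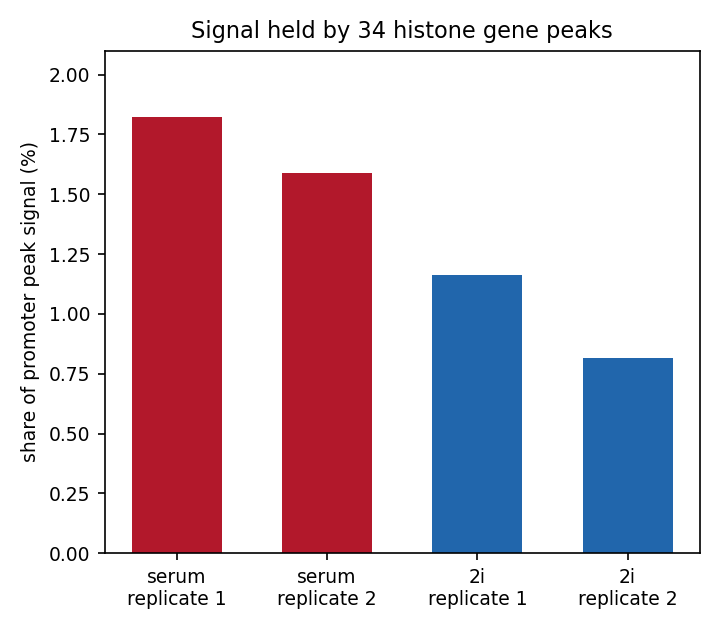
Share of the normalized counts of all promoter peaks that fell in the 34 histone peaks, in percent (vertical, from 0), for each of the 4 samples, with 1 bar per sample and no error bars. Both serum bars (1.82% and 1.59%) stand above both 2i bars (1.16% and 0.816%), and the 2i replicates differ from each other.

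Repeated sequence limits the reading of single histone genes. The median share of 43-base windows found once was 41.2% over the histone peaks and 100% over the other promoter peaks, and 25 of the 34 histone peaks were below 50%. The log2 fold change was positive at both ends of this range. The 2 peaks with 90% or more of their windows found once, Hist1h1a and Hist1h1b, had a median log2 fold change of 1.10. Both are H1 peaks, and no peak of a core histone reached 90%. The 10 peaks below 30% had a median of 0.79. The part of repeated sequence in the difference between conditions was not tested. Over the 34 peaks, Pearson's r between the share found once and the log2 fold change was 0.03, and Spearman's rho was 0.17. Between counts per kb and the log2 fold change r was -0.31 and rho -0.41. Histone peaks share copied sequence and mostly a cluster, and they may share reads, so these coefficients describe 34 dependent points.

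**Figure D5:**
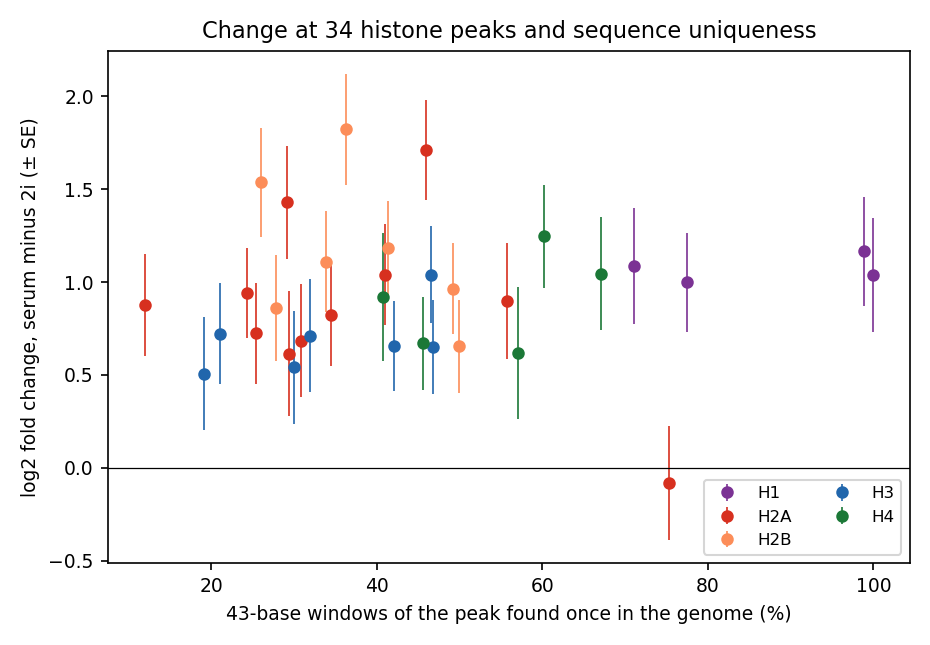
Share of the 43-base windows of a peak that occur once in the genome, in percent (horizontal), and log2 fold change, serum minus 2i, with its SE as bars (vertical), for the 34 histone peaks coloured by type. Positive values occur from the least unique peak (12.0%) to the peaks at 98.9% and 100%.

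Genes that serve histone supply in other ways had promoter peaks with log2 fold changes of either sign, from -1.29 at H1f0, which was called, to 0.97 at Pou2f1, which was not. The medians of the lists ran from -0.11 to 0.16. The 3 lists were written with earlier results of these data known. Of 17 regulators of histone gene transcription and histone mRNA processing, 6 had a peak, with a median log2 fold change of 0.04 and 0 called, where 10.3% of all peaks were called. Npat, the coactivator of histone genes, Slbp, which binds the mRNA stem-loop, and Hinfp, the factor of H4 promoters, had none. The highest of them by mean count was Upf1, which takes part in histone mRNA decay, with 166 and 201 in serum and 198 and 172 in 2i and a log2 fold change of -0.02 (SE 0.25). Pou2f1, which encodes the octamer factor OCT1, had 199 and 135 in serum and 82.3 and 84.5 in 2i. Its log2 fold change was 0.97 (SE 0.28) with a limma adjusted p of 0.114, and it was not called. Ncbp2 of the same list went the other way, with 29.6 and 44.8 in serum and 84.5 and 52.2 in 2i. The log2 fold change of Ncbp2 was -0.85 (SE 0.38) with a limma adjusted p of 0.278, and it was not called. Of 17 histone chaperones and carriers, 7 had a peak (8 peaks), with a median of 0.16 and 0 called. The highest by mean count was Asf1a, a carrier of H3 and H4, with 242 and 234 in serum and 183 and 186 in 2i and a log2 fold change of 0.37 (SE 0.24).

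The replication-independent histone variants, which are made outside S-phase as well and mostly from single genes with introns, had peaks at 9 of 10 genes, with a median log2 fold change of -0.11. In this list 2 of the 9 peaks were called, and both were higher in 2i, a direction called at 5.48% of all peaks. H1f0, a linker histone of resting and differentiated cells, had 34.8 and 43.8 in serum and 108 and 87.6 in 2i, with a log2 fold change of -1.29 (SE 0.32) and a limma adjusted p of 0.0777. H2afy, which encodes macroH2A, had 64.5 and 131 in serum and 193 and 234 in 2i, with a log2 fold change of -1.20 (SE 0.33) and a limma adjusted p of 0.103. At both genes the serum and 2i values did not overlap. Without serum replicate 1, H2afy had a log2 fold change of -0.70 with an unadjusted limma p of 0.0537 and was not called, while H1f0 stayed called with any 1 sample left out. The variant with the highest count was H2afz, which encodes H2A.Z, with 742 and 626 in serum and 512 and 433 in 2i and a log2 fold change of 0.53 (SE 0.28), followed by H1fx with 315 and 335 in serum and 471 and 349 in 2i and a log2 fold change of -0.32 (SE 0.27). H2afx, a variant that also carries the stem-loop of replication-dependent mRNAs, had 268 and 185 in serum and 165 and 169 in 2i and a log2 fold change of 0.42 (SE 0.26). Neither H2afz, H1fx nor H2afx was called. Upf1, Pou2f1, Ncbp2 and H2afx were named after their values were seen.

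The window that chose the peaks left out 1 peak nearby. It lies 3394 bp beyond the window of Hist1h4d (chr13:23677361-23677797), in the window of no annotated gene. It lies inside the annotated span of Hist1h2be, an H2B gene on the minus strand, and 350 of its 436 bases are coding sequence of that gene (chr13:23677448-23677825). The annotated transcript starts of Hist1h2be are 35 kb away, where its window holds the Hist1h1e peak, so Hist1h2be counts among the 41 genes with a peak through that one. The peak had 125 and 129.6 in serum and 52.6 and 48.0 in 2i. The log2 fold change was 1.33. The Hist1h4d peak, inside the window, had 1.05.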

How the data were processed

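E2F1 ChIP-seq was analysed in 2 serum and 2 2i samples, grouped by the sample labels. According to the methods and processing notes, paired-end reads of 43 bases were mapped by the authors to mm9 (BWA), duplicates (picard) and blacklisted regions were taken out, peaks were called per sample (MACS2), those shared by replicates were kept and merged across conditions, and reads over them were counted (bedtools). The deposited values are normalized counts, 1 signal value for each peak in each sample. With the exception of 9 values deposited as exactly 2, none of them in a histone peak, the values of each sample were whole multiples of 1 step (within 0.02 of a read), so that 1 read was worth 1.74, 0.953, 0.560 and 1.04 in serum replicates 1 and 2 and 2i replicates 1 and 2. The median peak held 35, 65, 111 and 58 reads in the same order.

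Each peak was tested with limma 3.58.1 (R 4.3.3) on the log2 of the normalized count plus a pseudocount of 1, using eBayes with a mean-variance trend, serum against 2i over all 4 samples and all 4523 peaks, with Benjamini-Hochberg adjustment over all peaks. Calls required a log2 fold change above 1 in size and p under 0.05 before adjustment, the values in the study's methods, which do not say whether p was adjusted. Peaks were placed on the GENCODE M1 annotation and the NCBIM37 genome (mm9), with deposited starts taken to count from 0, which the sources do not state. A window of 43 bases was said to occur once when no other position on either strand of the genome holds it. Python 3.11.15, numpy 2.4.6, pandas 2.3.3, numba 0.67.0 and matplotlib 3.10.9 were used.

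The histone genes, the lists of other genes and the rule for named peaks were chosen with earlier results of these data known. The rule gives values per sample for each called histone peak, the 3 with the highest and the 3 with the lowest log2 fold change, the strongest per kb of each type and those outside Hist1. Of the other lists it gives those called and the 3 with the highest mean. Other settings tried were pseudocounts of 0.1 and 8, a mean of at least 50, rescaling to equal totals, cyclic loess, a replicate block, eBayes without a trend, other windows and each sample left out.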

Additional observations from a re-analysis of the deposited data

How the results depend on the processing

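Serum was higher at 33 or 34 of the 34 histone peaks in every alternative fit over all of them. The count of 13 called peaks was 8 with samples rescaled to equal totals, where the 5 lost peaks lay at 0.95 to 0.995. There the median of the other promoter peaks went from -0.05 to -0.14 and that of the histone peaks from 0.91 to 0.82, and the difference between them stayed at 0.96. It was 2 of 2 when only peaks with at least 90% of their 43-base windows found once were kept, where the median log2 fold change was 1.10 and its difference from the other promoter peaks 1.15, against 0.91 and 0.96 in the main fit, so the count fell because 2 peaks were left. With each sample left out in turn, the count ranged from 6 to 23, the median from 0.73 to 1.11, its difference from the other promoter peaks from 0.77 to 1.15, the number passing adjustment from 0 to 1 and the called peaks of the 3 other lists from 1 to 5, against 2. The lone sample of a condition was then taken to vary like the other condition. The difference in share of promoter signal, 0.717 percentage points, was not moved beyond the spread of replicates by any of its alternatives.

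A replicate block left the 13 calls as they were and raised the number of histone peaks that passed adjustment from 5 to 18. The labels give the samples only a shared number: over all peaks the deviations of same-numbered samples correlated at 0.05, so the numbers were not taken as pairs. Without a variance trend, 13 peaks were called, 20 had an unadjusted p under 0.05 with serum higher, and 0 passed adjustment in limma. Of the 20 named histone peaks under 9 alternatives each, 150 of 180 values stayed on their side of the call, 23 lost it and 6 gained it. The reversed one was Hist2h2ab, from -0.49 to 0.32 with single samples left out. Calls lost outside the samples left out were Hist1h1a, Hist1h3a and Hist1h4d with a pseudocount of 8, these with Hist1h1e and Hist1h2ai after rescaling, and Hist1h2ai and Hist1h3a with cyclic loess. Hist1h2ab, Hist1h2bh, Hist1h2bl, Hist1h2al, Hist1h2bj and Hist1h4f stayed called throughout. Count tests on recovered reads were planned and not run, because a check that takes the lowest value of a sample as 1 read was not passed by serum replicate 2 and both 2i samples, where the lowest values are 2, 5 and 2 reads by the step used here. Summed over the histone peaks, 2i replicate 2 held the fewest reads, and over all peaks serum replicate 1 did.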
